A study of Mus musculus with 9 samples.

Results

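The genes described here are 4 Siglecs (Siglece, Siglec1, Cd22 and Cd33) and 6 sialyltransferases (St6gal1, St3gal1, St3gal2, St3gal4, St3gal5 and St3gal6), 10 of the 18193 genes measured. They were named with earlier results of these data in view. The probe set that stands for each gene was chosen by its mean signal over all 9 arrays, among probe sets annotated to that gene alone. St6gal1 entered the set with its difference known, so its values are given as a description without a test. The other 9 genes were tested in a fit of all genes. Their choice was not blind to these data, and their p-values and counts make no allowance for it.

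Bone marrow derived macrophages of C57BL6 mice aged 6 to 12 weeks were grown with 10% L929 conditioned medium, kept without it from culture day 5 and used on day 6. All cultures received ultrapure LPS (lipopolysaccharide, the bacterial cell wall component sensed by TLR4) at 33 ng/mL for 3 h, followed for 6 h by TMT OH (trimethyltin hydroxide) at 1.25 µM, TET Br (triethyltin bromide) at 10 µM, or sterile saline. RNA from 3 biological replicates of each group was read on Affymetrix mouse genome arrays. The study asked which mRNAs differ after each organotin, used to activate the NLRP3 inflammasome, relative to saline. No culture without LPS is part of the comparison, so every group carries the LPS response, and the organotins differ in dose as well as in their alkyl groups. The labels do not say that the replicates came from separate mice, so each p-value covers the spread among these cultures alone, which may be technical. Levels are log2 signals and differences are log2 differences throughout, errors of groups are SD with n = 3, and 0.1 is the smallest p that an exact permutation test could reach with 3 arrays in each group.

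Sialic acids are the sugars that cap most glycan chains on mammalian cell surfaces. Sialyltransferases of the Golgi attach them: the ST6Gal enzymes to the sixth carbon and the ST3Gal enzymes to the third carbon of galactose. Siglecs are receptors of immune cells that bind these caps. Many carry inhibitory tyrosine motifs that recruit the phosphatases SHP-1 and SHP-2 and dampen activation, so that sialylated surfaces act as a self signal. In the mouse, Siglec-E is the main inhibitory Siglec of macrophages and neutrophils, Siglec-1 (sialoadhesin, CD169) is an adhesion receptor of resident macrophages, and CD22 is best known as an inhibitory receptor of B cells.

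Promoter windows of the 4 genes with the largest differences are shown first, because these genes carry the results: Siglece and Cd33 were higher with TMT, St6gal1 was lower with both organotins, and St3gal6 was higher with TET. The sequences are RefSeq windows of 300 bases on GRCm38.p6, from 250 bases before to 50 bases after an annotated gene start, 5′ to 3′ along the gene. Windows were held for 7 of the 10 genes. Where a gene has several windows, the one with a motif match is shown (the third of 3 for St6gal1, the first of 2 for St3gal6). Capitals mark matches to a short list of motifs.

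Siglece, chr7:43660112-43660411, minus strand: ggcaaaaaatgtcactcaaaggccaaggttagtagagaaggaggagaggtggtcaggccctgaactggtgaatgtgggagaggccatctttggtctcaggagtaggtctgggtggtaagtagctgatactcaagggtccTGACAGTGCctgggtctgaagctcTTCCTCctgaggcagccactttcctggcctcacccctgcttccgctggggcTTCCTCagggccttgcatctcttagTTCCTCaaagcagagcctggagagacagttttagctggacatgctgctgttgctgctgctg
Cd33, chr7:43533122-43533421, minus strand: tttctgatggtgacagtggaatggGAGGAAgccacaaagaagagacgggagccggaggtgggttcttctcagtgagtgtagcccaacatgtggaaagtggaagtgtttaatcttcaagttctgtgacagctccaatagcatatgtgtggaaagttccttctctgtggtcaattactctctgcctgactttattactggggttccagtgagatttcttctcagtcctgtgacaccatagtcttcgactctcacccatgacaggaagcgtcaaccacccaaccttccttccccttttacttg
St6gal1, chr16:23290220-23290519, plus strand: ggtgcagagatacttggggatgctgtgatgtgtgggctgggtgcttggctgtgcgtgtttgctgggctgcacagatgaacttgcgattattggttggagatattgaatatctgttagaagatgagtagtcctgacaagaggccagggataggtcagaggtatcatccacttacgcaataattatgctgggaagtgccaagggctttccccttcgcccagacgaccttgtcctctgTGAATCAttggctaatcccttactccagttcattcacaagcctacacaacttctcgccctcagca
St3gal6, chr16:58524204-58524503, minus strand: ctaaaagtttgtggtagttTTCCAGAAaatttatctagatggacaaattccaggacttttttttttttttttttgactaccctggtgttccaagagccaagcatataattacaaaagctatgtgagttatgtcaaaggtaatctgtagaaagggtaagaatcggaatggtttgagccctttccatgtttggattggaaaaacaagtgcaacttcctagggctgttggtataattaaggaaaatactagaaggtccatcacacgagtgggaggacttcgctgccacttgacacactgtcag

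The motifs were searched on both strands. GAGGAA, the core bound by PU.1 and other ETS factors, occurred 3 times in the Siglece window and once each in the Cd33 and St3gal4 windows. It was in 3 of the 10 windows of these genes and in 28.3% of all 32851 windows. TGANTCA, the AP-1 site loosened to any middle base, was found in 1 of the 10 windows and in 7.81% of all windows. The match, TGAATCA in the St6gal1 window shown, has A in the middle, where the AP-1 consensus has C or G. TTCNNGAA, a pair of heat shock factor half-sites, was found in the St3gal6 window and in 8.52% of all windows. TGACNNNGC, the antioxidant response element, was found in 1 of the 10, the Siglece window, and in 12.4% of all windows. The antioxidant response element can overlap the AP-1 site, and the AP-1 and heat shock patterns read the same on both strands. TGATGNAA (ATF4 with C/EBP, 3.97% of all windows) and GAAANNGAA (interferon regulatory factors, 8.56%) were in none of the 10 windows of these genes. A match is only a match of letters in this window.

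The labelled cell type was checked with its markers: the 9 measured macrophage markers had saline means of 9.25 to 14.26, with none of the 9 under 4.71, the limit of the dim end of all genes in saline. Of these, 2 rose and 2 fell with TMT, and 1 rose and 5 fell with TET. Markers of other cells had median levels of 5.6 in TMT, 6.01 in TET and 5.52 in saline for B cells (9 genes), and of 5.33, 6.03 and 5.43 in the same groups for T and NK cells (7 genes). Other lists had saline medians of 7.73 (neutrophil), 6.38 (stromal), 5.39 (dendritic cell) and 4.51 (mast cell and basophil). Their brightest markers in saline reached 10.86, 9.81, 6.97 and 10.77, in that order, so markers of other cells were not all dim. With TET, 4 of these T and NK cell markers rose and 0 fell, as did 3 of 9 dendritic cell markers (1 fell), 1 of 9 mast cell and basophil markers (0 fell) and 5 of 10 stromal markers (1 fell). With TMT the same lists had 0, 1, 1 and 2 rises and 2, 1, 0 and 0 falls. Replicates of a group correlated at 0.994 to 0.998 (TMT), 0.990 to 0.992 (TET) and 0.997 to 0.998 (saline) across genes, which are not independent. The interquartile range of the signals was 3.45 to 3.55 on TET arrays and 3.78 to 3.86 on TMT arrays, against 3.83 to 3.88 on saline arrays. The part of this compression of the TET signals in small TET differences was not tested.

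With TMT, 3 of the 4 Siglecs rose and 0 fell, while the sialyltransferases went both ways. Of the 9 genes tested, 5 rose, 2 fell and 2 did not pass (limma, adjusted p under 0.05 over all genes). Among all 18193 genes, 14.3% rose and 13.4% fell with TMT. These shares are given beside a chosen set, and the set was not tested against them. After quantile normalization was applied again, 5 rose and 1 fell. TMT and saline arrays were fully separate for 9 of the 10 genes, and for 44.7% of all genes. The median difference of the 10 genes was 0.40, against 0.01 for all genes. The calls for Siglece, Cd33 and Siglec1 held in all 18 alternatives tried. Those for 4 ST3Gal genes did not, as given with each gene: 3 genes passed without saline replicate 1, saline replicate 2 or TMT replicate 1, and 4 without saline replicate 3 or TMT replicate 3.

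With TET, 2 of the 9 tested genes rose, 5 fell and 2 did not pass, and the tested gene that changed most was St3gal6, which rose. Of all genes, 27.4% rose and 23.4% fell with TET. After quantile normalization was applied again, 3 rose and 2 fell. TET and saline arrays were fully separate for 8 of the 10 genes, and for 58.7% of all genes. The median difference was −0.42, against 0.09 for all genes. The count depends on single arrays: 2 genes passed without saline replicate 1, 3 without saline replicate 3 or TET replicate 1, and 4 without saline replicate 2 or TET replicate 2. Between the organotin groups themselves 8 of the 9 genes differed, 2 higher and 6 lower in TET than in TMT, where 51.8% of all genes passed; the doses of that contrast differ. The arrays measure RNA of whole cultures, in which fewer cells of a type and less RNA per cell cannot be told apart.

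**Figure D1:**
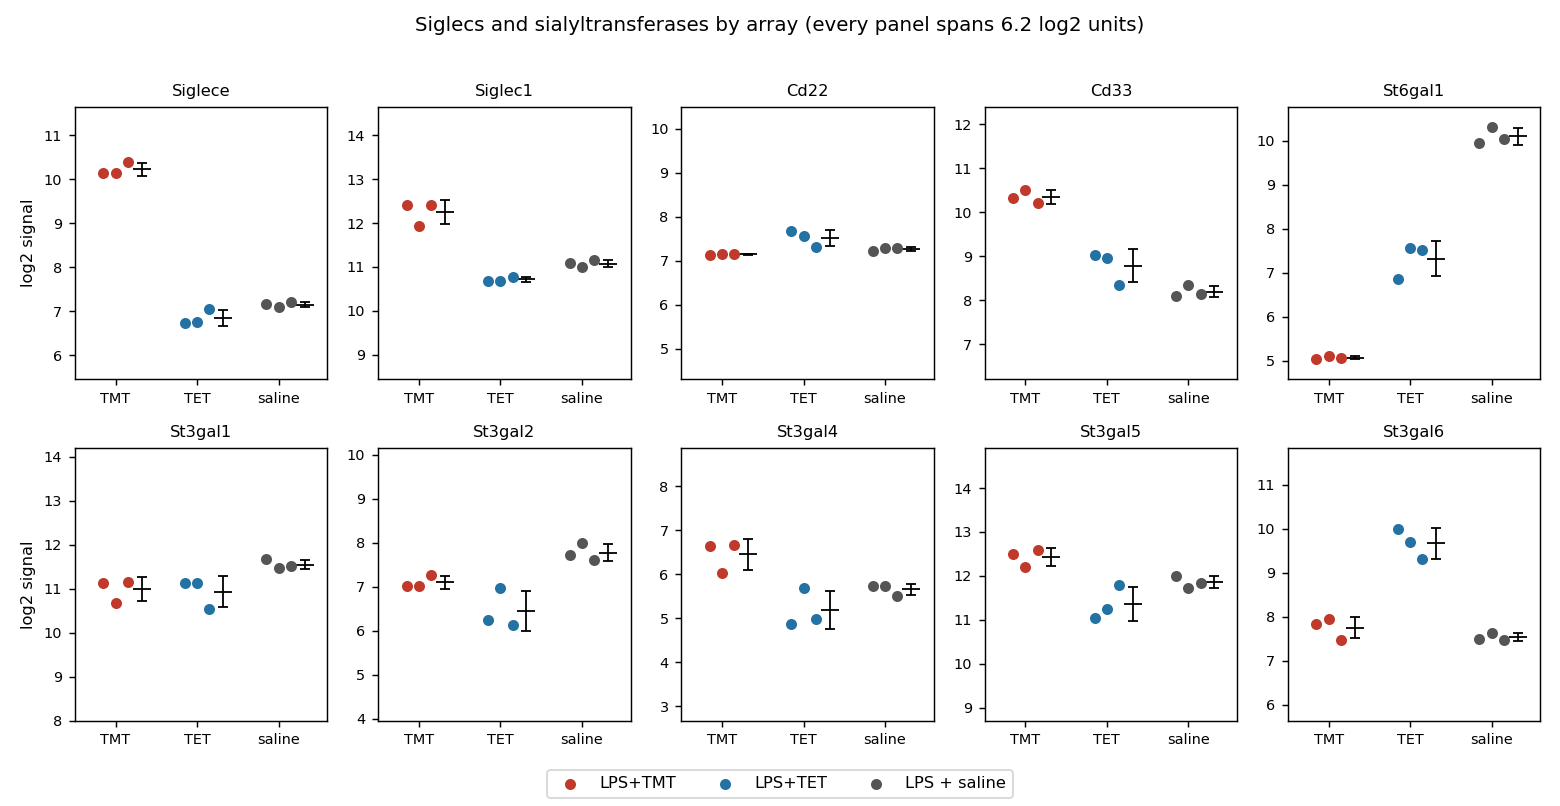
Log2 signal of each of the 10 genes on each of the 9 arrays, in LPS+TMT (red), LPS+TET (blue) and LPS + saline (grey) cultures. Points are arrays and black marks show mean and SD (n = 3); every panel spans the same number of log2 units. Siglece and Cd33 stand highest in TMT, St3gal6 stands highest in TET, and St6gal1 is lower in both organotin groups than in saline.

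Siglece, encoding the inhibitory receptor Siglec-E, had signals of 10.15, 10.14 and 10.39 in TMT cultures, 6.72, 6.75 and 7.05 in TET cultures, and 7.16, 7.09 and 7.20 in saline cultures. The TMT arrays stood well above the rest, and the TET arrays lay just below the saline arrays. Siglece rose 8.44-fold with TMT (difference 3.08, SE 0.11, limma adjusted p = 1e-07). It was 0.31 lower in TET than in saline (difference −0.31, SE 0.11, 95% interval −0.56 to −0.06, limma adjusted p = 0.041). This TET call was not kept without any 1 of the saline replicates, without TMT replicate 1, TET replicate 1 or TET replicate 2, after quantile normalization was applied again, with trended robust variances, or with the 6 arrays of the comparison alone (adjusted p = 0.053 to 0.12). Between the organotins, Siglece was lower in TET by a difference of −3.39 (SE 0.11, adjusted p = 1.9e-08).

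Cd33, the mouse relative of human CD33 which lies near Siglece on chromosome 7, had signals of 10.33, 10.51 and 10.20 in TMT cultures, 9.03, 8.97 and 8.35 in TET cultures, and 8.10, 8.34 and 8.14 in saline cultures. All TMT arrays lay above all others, and all TET arrays above saline, the lowest by a narrow margin. Cd33 rose 4.44-fold with TMT (difference 2.15, SE 0.17, limma adjusted p = 8.4e-06) and 1.51-fold with TET (difference 0.59, SE 0.17, adjusted p = 0.017). The TET call was not kept without saline replicate 1 or 3 or without TET replicate 1 or 2 (adjusted p = 0.052 to 0.059). The 9 neutrophil markers, whose cells also carry Siglec-E and CD33, had mean levels of 6.82 to 7.04 in TMT cultures, 6.71 to 6.89 in TET cultures and 7.18 to 7.31 in saline cultures. Of these markers 1 rose and 4 fell with TMT, and 0 rose and 4 fell with TET.

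Siglec1, encoding sialoadhesin, had signals of 12.42, 11.93 and 12.41 in TMT cultures, 10.69, 10.68 and 10.78 in TET cultures, and 11.08, 10.99 and 11.15 in saline cultures. The 3 groups did not overlap, with TMT highest and TET lowest. Siglec1 rose 2.27-fold with TMT (difference 1.18, SE 0.13, limma adjusted p = 7.6e-05) and fell 1.28-fold with TET (difference −0.36, SE 0.13, adjusted p = 0.043). The 3 probe sets of Siglec1 were alike with TMT, at differences of 1.18, 1.22 and 1.28. With TET they were not: 1427706_a_at differed by −0.18 (SE 0.21, adjusted p = 0.51 over all probe sets), and 1427668_at fell by 2.02 (SE 0.24, adjusted p = 8.1e-05 over all probe sets). Over all probe sets the brightest had adjusted p = 0.052 with TET. With the mean over the 3 probe sets the TET difference was −0.85 (adjusted p = 0.001). The TET call of the brightest probe set was not kept without any 1 of the saline or TET replicates, or after quantile normalization was applied again (adjusted p = 0.057 to 0.13). Siglec1 is a known interferon-induced gene. Of 12 measured genes of the type I interferon response, 3 rose and 5 fell with TMT (median difference −0.14), and 2 rose and 6 fell with TET (median −0.13). Among them Mx2, an antiviral GTPase, fell with TMT (−1.14, SE 0.10, adjusted p = 1.2e-05) and with TET (−1.12, SE 0.10, adjusted p = 7.8e-06). Mx1, Cxcl10 and Ifit1, also induced by interferon, fell with TMT by 0.56, 0.45 and 0.34 and with TET by 0.65, 0.68 and 0.43 (adjusted p = 0.01 or lower in each). The list did not move one way: Irf7, an interferon regulatory factor named after its values were seen, rose with TMT (0.87, SE 0.16, adjusted p = 0.0024) and with TET (0.49, SE 0.16, adjusted p = 0.03).

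Cd22, encoding the B cell inhibitory receptor, had signals of 7.14, 7.16 and 7.15 in TMT cultures, 7.68, 7.57 and 7.32 in TET cultures, and 7.22, 7.30 and 7.30 in saline cultures. TMT lay just below saline and TET just above it. The means were 7.15 ± 0.00988 in TMT cultures, 7.52 ± 0.186 in TET cultures and 7.27 ± 0.0474 in saline cultures. Neither difference from saline passed: −0.13 for TMT (95% interval −0.35 to 0.10, limma adjusted p = 0.44) and 0.25 for TET (0.02 to 0.48, adjusted p = 0.064). The TET difference passed without TET replicate 3 (0.35, adjusted p = 0.0072) and after quantile normalization was applied again (0.39, adjusted p = 0.012). It also passed with the mean over probe sets (0.29, adjusted p = 0.028) and among bright genes alone (0.25, adjusted p = 0.048). The 9 measured B cell markers had mean levels of 5.54 to 5.67 in TMT cultures, 6.13 to 6.16 in TET cultures and 5.76 to 5.89 in saline cultures. Of those, 0 rose and 1 fell with TMT, and 5 rose and 1 fell with TET. Their part in the Cd22 and St6gal1 values was not tested.

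St6gal1, the enzyme that caps N-glycans through the sixth carbon of galactose, had signals of 5.04, 5.10 and 5.07 in TMT cultures, 6.86, 7.57 and 7.52 in TET cultures, and 9.95, 10.32 and 10.04 in saline cultures. The 3 groups lay far apart, with TET between TMT and saline. Means were 5.07 ± 0.0298, 7.32 ± 0.397 and 10.11 ± 0.19 in TMT, TET and saline, so the difference from saline was −5.03 with TMT and −2.79 with TET. The files give no detection call, and whether the TMT level lies above background was not tested.

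The second St6gal1 probe set, 1420927_at, was designed on the same sequence record as the first. Its signals were 4.25, 4.34 and 4.33 in TMT cultures, 4.53, 5.10 and 4.67 in TET cultures, and 5.90, 6.19 and 5.26 in saline cultures. It showed the same order of groups with no overlap between either organotin and saline, at differences of −1.47 with TMT and −1.02 with TET. TET and TMT arrays of this probe set also did not overlap, by a margin smaller than the spread within TET.

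The genes whose 9 values followed St6gal1 most closely were Efna2 (Pearson r = 0.9946), Rhbdf1 (0.9944), Calcrl (0.993), Plcb4 (0.9929), Hpgd (0.9919) and Msra (0.9912), among 3238 genes at or above the median signal (6.82) with at least 1 log2 unit between group means. These correlations describe 9 arrays in 3 separated groups and share the same libraries. Hpgd, which inactivates prostaglandins, had means of 7.34 in TMT, 9.16 in TET and 11.51 in saline. For Siglec1 the 6 closest were Cbl (0.9951), Sipa1 (0.9928), Glrx (0.9903), Ehbp1l1 (0.9892), Abi3 (0.989) and Mmp14 (0.9888).

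**Figure D2:**
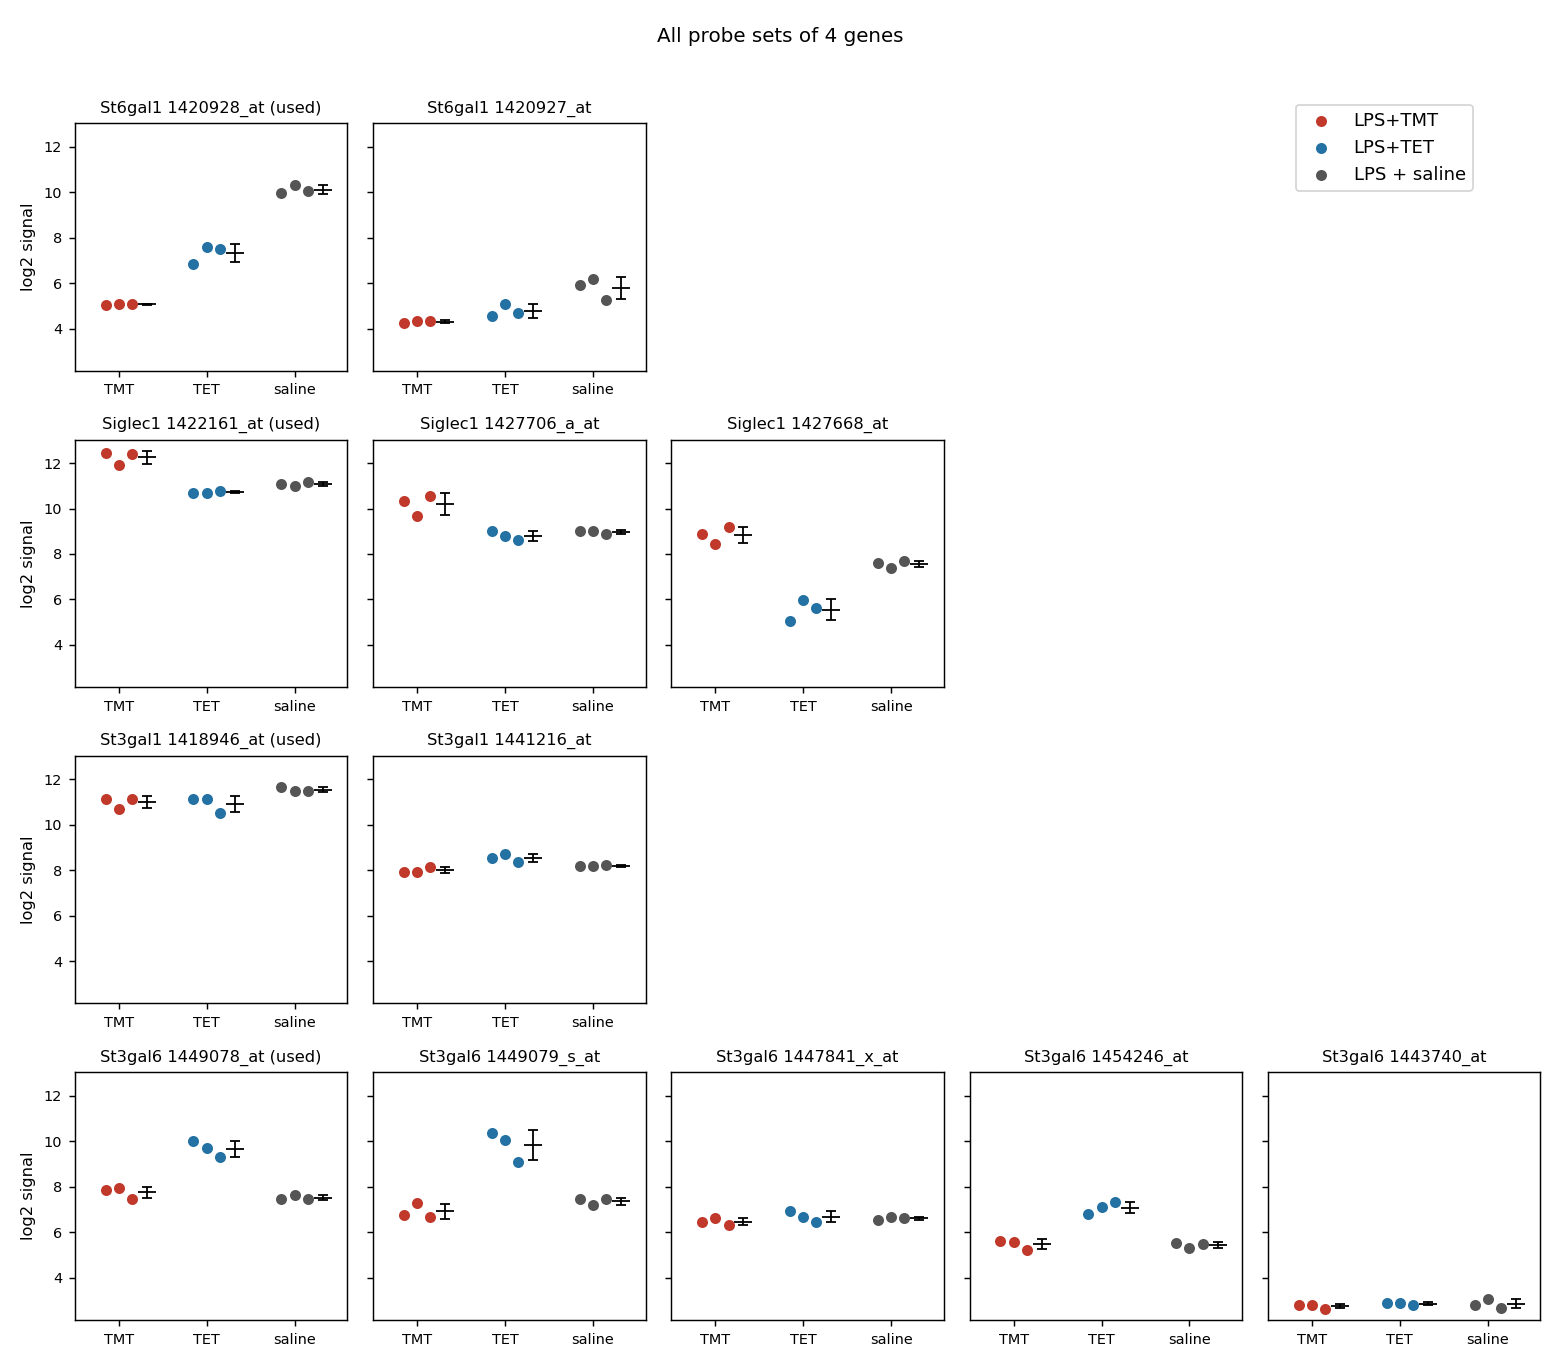
Log2 signal of every probe set of St6gal1, Siglec1, St3gal1 and St3gal6 on each of the 9 arrays, with mean and SD (n = 3) in black; "used" marks the probe set with the highest mean. Both St6gal1 probe sets are lower in TMT and TET than in saline, while the Siglec1 probe sets differ in size with TET, from −0.18 to −2.02, and the St3gal1 probe sets in direction.

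St3gal6, which caps the third carbon of galactose on glycans that include selectin ligands, had signals of 7.84, 7.94 and 7.47 in TMT cultures, 10.00, 9.69 and 9.31 in TET cultures, and 7.48, 7.63 and 7.47 in saline cultures. The TET arrays stood above all others, while TMT and saline overlapped. St3gal6 rose 4.42-fold with TET (difference 2.14, SE 0.17, limma adjusted p = 5.2e-06), a call kept in all 18 alternatives. With the mean over its probe sets the difference was 1.27. With TMT the difference was 0.22 (95% interval −0.17 to 0.61, adjusted p = 0.44), which passed with array weights (0.28, adjusted p = 0.029) and was −0.09 with the mean over probe sets. The probe set chosen had a mean over all arrays of 8.32 and the next, 1449079_s_at, 8.04. That second probe set also rose with TET (2.47, SE 0.29) and had a difference of −0.44 with TMT (SE 0.29, adjusted p = 0.36 over all probe sets). Another, 1454246_at, rose with TET by 1.65 (SE 0.15), whereas 1447841_x_at (0.08, adjusted p = 0.63) and 1443740_at (0.01, adjusted p = 0.96) did not pass. Probe set 1443740_at had means of 2.75 in TMT, 2.86 in TET and 2.85 in saline, under the dim limit of 4.71. It may be too dim to show a change.

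St3gal2, which acts on O-glycans and gangliosides, had signals of 7.01, 7.02 and 7.27 in TMT cultures, 6.24, 6.97 and 6.12 in TET cultures, and 7.73, 7.99 and 7.60 in saline cultures. Both organotin groups lay below saline, and TET replicate 2 came close to the TMT arrays. It fell 2.52-fold with TET (difference −1.33, SE 0.20, limma adjusted p = 0.00039), a call kept in all 18 alternatives, and by 0.79 with the mean over probe sets. It fell with TMT (−0.67, SE 0.20, adjusted p = 0.032, and −0.39 with the mean over probe sets), a call not kept without saline replicate 1 or 2 or TMT replicate 1 or 2 (adjusted p = 0.077 to 0.12). Probe set 1421892_at passed with TET (−0.77, adjusted p = 0.03 over all probe sets) and not with TMT (−0.37, adjusted p = 0.39). Probe set 1421890_at passed in neither (−0.28 with TET, adjusted p = 0.24, and −0.11 with TMT, adjusted p = 0.76).

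St3gal1, which caps core 1 O-glycans, had signals of 11.14, 10.68 and 11.15 in TMT cultures, 11.13, 11.14 and 10.53 in TET cultures, and 11.67, 11.47 and 11.51 in saline cultures. Both organotin groups lay below saline. The means were 10.99 ± 0.269 in TMT cultures, 10.93 ± 0.349 in TET cultures and 11.55 ± 0.109 in saline cultures. It fell 1.47-fold with TMT (difference −0.56, SE 0.18, limma adjusted p = 0.044) and 1.53-fold with TET (−0.62, SE 0.18, adjusted p = 0.017). The TMT call was lost without any 1 of the saline or TMT replicates (adjusted p = 0.053 to 0.15), after quantile normalization was applied again (0.075) and with the mean over probe sets (0.054), and the TET call without saline replicate 1 (adjusted p = 0.062). The organotin groups overlapped and differed by −0.06 (95% interval −0.46 to 0.35). A second St3gal1 probe set, 1441216_at, went the other way with TET (0.34, SE 0.11, adjusted p = 0.034 over all probe sets) and did not pass with TMT (−0.20, adjusted p = 0.27). Over all probe sets the first had adjusted p = 0.056 with TMT and 0.02 with TET. With the mean over both probe sets the TET difference was −0.14 (adjusted p = 0.39).

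St3gal5, the GM3 synthase that opens ganglioside synthesis, had signals of 12.51, 12.20 and 12.58 in TMT cultures, 11.04, 11.25 and 11.80 in TET cultures, and 12.01, 11.73 and 11.84 in saline cultures. TMT lay above saline, and TET replicate 3 lay within the saline range. The gene rose 1.48-fold with TMT (difference 0.57, SE 0.18, limma adjusted p = 0.043) and fell 1.41-fold with TET (−0.50, SE 0.18, adjusted p = 0.046). The TMT call was lost without any 1 of the saline replicates, TMT replicate 1 or 3, or TET replicate 2, and with arrays centred on their medians (adjusted p = 0.053 to 0.14). The TET call was lost without any 1 of the saline replicates, TMT replicate 1 or 3, or TET replicate 1 or 2, after quantile normalization was applied again, and with the 6 arrays of the comparison alone (adjusted p = 0.055 to 0.15). Its second probe set moved the same ways, by 0.71 with TMT (SE 0.15, adjusted p = 0.0059 over all probe sets) and by −0.55 with TET (SE 0.15, adjusted p = 0.012). On that scale the first probe set passed with neither organotin (adjusted p = 0.055 with TMT and 0.054 with TET). The difference between TET and TMT was −1.07 for the first probe set (SE 0.18, adjusted p = 0.00082 over all genes).

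St3gal4, which makes sialylated caps of selectin ligands on leukocytes, had signals of 6.65, 6.04 and 6.67 in TMT cultures, 4.88, 5.68 and 4.99 in TET cultures, and 5.74, 5.73 and 5.52 in saline cultures. TMT lay above saline and TET overlapped it. It rose 1.73-fold with TMT (difference 0.79, SE 0.22, limma adjusted p = 0.023), a call lost without any 1 of the saline replicates or TMT replicate 1 or 3 (adjusted p = 0.054 to 0.091). With TET the difference of −0.48 did not pass (95% interval −0.98 to 0.01, adjusted p = 0.096), and it passed without TET replicate 2 (−0.73, adjusted p = 0.010). The gene has 1 probe set, and its mean in saline lay below the median gene (6.82).

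**Figure D3:**
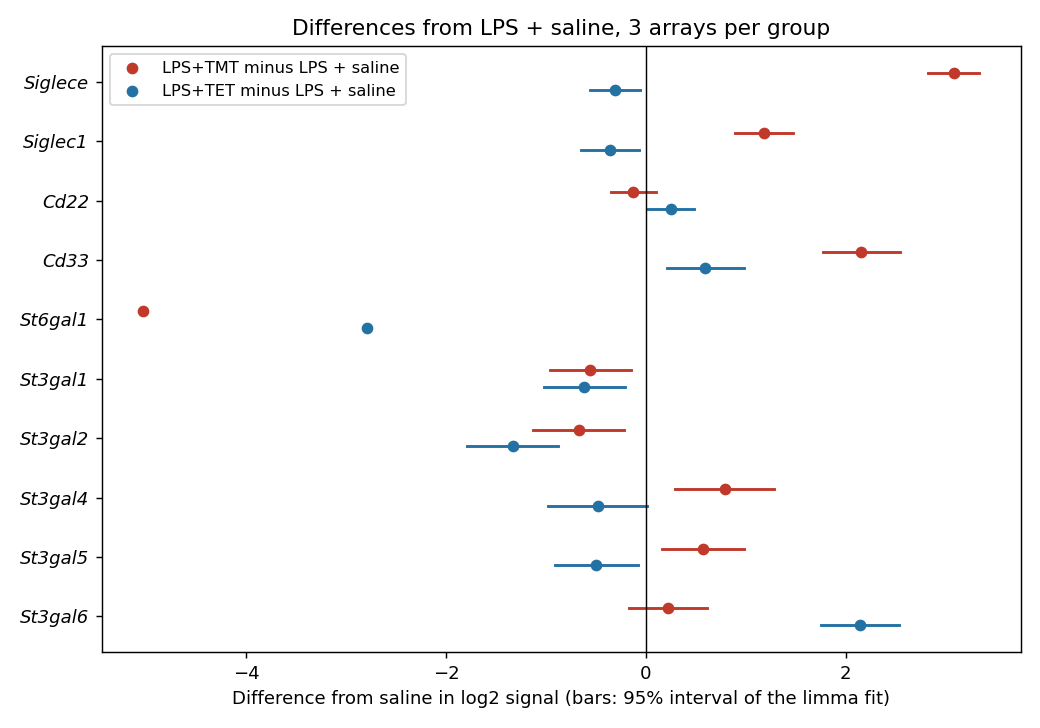
Difference in log2 signal from LPS + saline for LPS+TMT (red) and LPS+TET (blue), with 95% intervals of the limma fit (3 arrays per group); St6gal1 has no interval because it was not tested. Siglece (3.08), Cd33 (2.15) and Siglec1 (1.18) are the high TMT points, St3gal6 (2.14) the high TET point, and St6gal1 the low point of both (−5.03 and −2.79).

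Of 14 other sialyltransferases, 0 rose and 3 fell with TMT (median difference −0.11), and 7 rose and 2 fell with TET (median 0.24). With TET 27.4% of all genes rose and 23.4% fell. Of the 7, St6galnac3, St8sia1, St8sia5 and St6galnac1 had saline means of 3.69, 4.15, 5.05 and 5.46, below the median gene (6.82). St6galnac2, St6galnac4 and St6galnac6 lay above it. Whether the compressed TET signals play a part in these rises was not tested. St6galnac2, which adds sialic acid to O-glycan cores, fell with TMT (−0.47, SE 0.09, limma adjusted p = 0.0038) and rose with TET (0.82, SE 0.09, adjusted p = 5.5e-05). St6galnac4, an enzyme of the same family, rose with TET (1.37, SE 0.23, adjusted p = 7.3e-04) with a TMT difference of 0.07. St8sia4, a polysialyltransferase, fell with TMT (−0.68, SE 0.10, adjusted p = 4.4e-04) and with TET (−0.37, SE 0.10, adjusted p = 0.010). St8sia1, the GD3 synthase, rose with TET (0.65, adjusted p = 0.0013), at means of 4.19 in TMT, 4.80 in TET and 4.15 in saline. Its saline mean lay under 4.71, the limit of the dim end, and whether the gene was expressed was not tested.

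Of 4 other Siglec genes measured, 1 rose with TMT and 2 rose with TET. Mag, encoding the myelin Siglec, rose with TMT (1.22, SE 0.14, limma adjusted p = 9.3e-05), with means of 6.42 in TMT and 5.21 in saline. Siglecg rose with TET (1.06, SE 0.18, adjusted p = 7.4e-04), as did Siglecf, a Siglec of eosinophils and alveolar macrophages (0.68, SE 0.18, adjusted p = 0.0089). The part of the compressed TET signals in these TET values was not tested.

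Of 9 genes of sialic acid synthesis and transport, 3 rose and 1 fell with TMT (median 0.09), and 1 rose and 5 fell with TET (median −0.78). Slc35a1, the Golgi carrier of CMP-sialic acid on which all sialyltransferases draw, fell 3.77-fold with TET (−1.91, SE 0.17, limma adjusted p = 1.1e-05) and differed by 0.35 with TMT (SE 0.17, adjusted p = 0.18). Nanp and Nans, enzymes of sialic acid synthesis, fell with TET by 1.27 (SE 0.16) and 0.78 (SE 0.10). Both rose with TMT, by 0.55 (adjusted p = 0.030) and 0.33 (adjusted p = 0.037). Npl, which breaks sialic acid down, fell with TMT (−1.48, SE 0.15, adjusted p = 4.7e-05) and with TET (−0.86, SE 0.15, adjusted p = 0.0011).

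Of 6 genes that remove or modify sialic acids, 2 rose and 1 fell with TMT, and 0 rose and 3 fell with TET. Neu1, the lysosomal sialidase, rose 2.50-fold with TMT (1.32, SE 0.17, limma adjusted p = 2.4e-04) and did not pass with TET (0.31, SE 0.17, adjusted p = 0.17). Casd1, which adds O-acetyl groups to sialic acid, rose with TMT (0.65, SE 0.14, adjusted p = 0.0057) and fell with TET (−1.17, SE 0.14, adjusted p = 7.2e-05). Siae, the esterase that removes such groups, fell with TMT (−0.57, SE 0.17, adjusted p = 0.034) and with TET (−0.93, SE 0.17, adjusted p = 0.0014). Neu3, a plasma membrane sialidase of gangliosides, fell with TET (−1.09, SE 0.23, adjusted p = 0.0028).

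Of 11 measured signalling partners of Siglecs, 5 rose and 1 fell with TMT, and 0 rose and 7 fell with TET. Inpp5d, encoding the inositol phosphatase SHIP1, rose 3.89-fold with TMT (1.96, SE 0.20, limma adjusted p = 4.1e-05) and fell 2.12-fold with TET (−1.08, SE 0.20, adjusted p = 0.0013). Cbl, a ubiquitin ligase, rose with TMT (1.11, SE 0.11, adjusted p = 3.4e-05) and fell with TET (−0.36, SE 0.11, adjusted p = 0.020). Ptpn11, encoding SHP-2, fell with TET (−0.74, SE 0.08, adjusted p = 3.9e-05) and differed by −0.15 with TMT. Socs3, a feedback inhibitor of cytokine signalling, fell with TET (−0.87, SE 0.10, adjusted p = 3.9e-05). Ptpn6, encoding SHP-1 and named after its values were seen, rose with TMT (0.96, adjusted p = 7.9e-04) and fell with TET (−0.60, adjusted p = 0.0074). These lists are described by their counts alone, and the shares of all genes that rose or fell stand above.

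**Figure D4:**
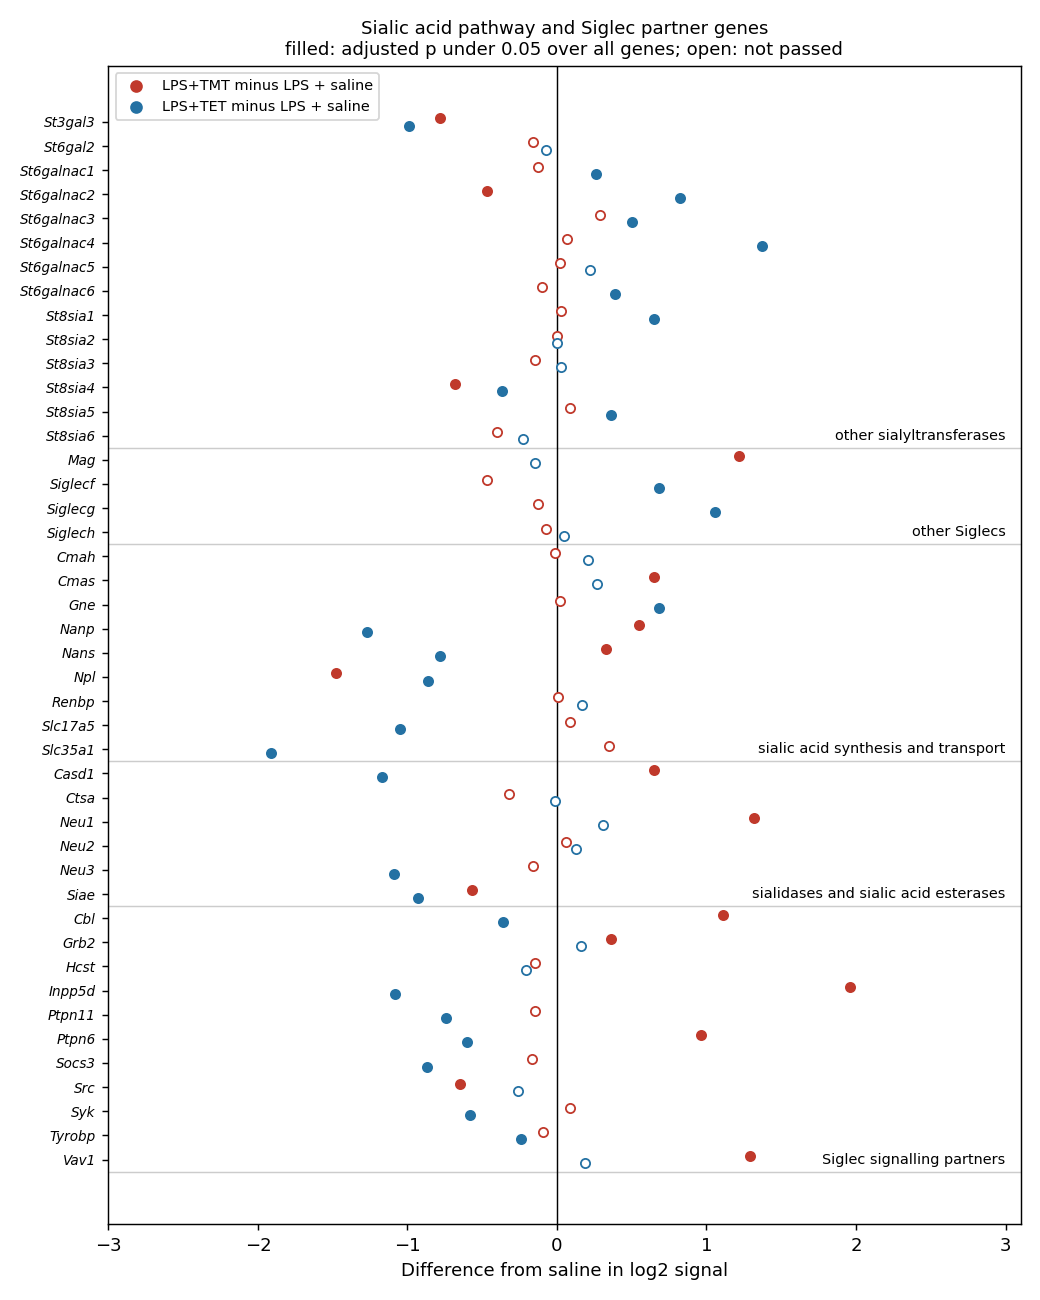
Difference in log2 signal from LPS + saline for genes of sialic acid metabolism, other Siglecs, other sialyltransferases and Siglec signalling partners, in LPS+TMT (red) and LPS+TET (blue). Filled points passed at an adjusted p under 0.05 over all genes; Inpp5d lies to the right for TMT (1.96) and to the left for TET (−1.08), and Slc35a1 is the lowest TET point shown (−1.91).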

How the data were processed

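Log2 signals of 45037 probe sets on 9 arrays were used as deposited, with no further normalization. Per the submitters' processing notes they were made with affy and RMA. Versions, and whether all arrays were processed together, are not stated. The log2 base was taken from the values (2.05 to 14.8). No depth or detection call accompanies them, so precision is limited by how many arrays there are.

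Platform annotation named 1 gene for 34945 probe sets, several for 932 and none for 9160. The probe set with the highest mean over the arrays stood for a gene (18193 genes). limma 3.58.1 in R 4.3.3 fitted 1 mean per group over all 9 arrays (6 residual degrees of freedom), with variances moderated across genes and two-sided p-values adjusted by Benjamini and Hochberg over all genes; genes passed under 0.05. The fit was tested on simulated data with independent noise and far fewer changed genes than were called here, which checks the code alone. Single probe sets were adjusted over all 45037, so a call among them and a call among genes rest on different adjustments.

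The genes, lists and tests were chosen with earlier results of these data known. Named were all 10 genes, every St6gal1 probe set, other probe sets whose sign or call differed, from each list up to 4 genes with the smallest adjusted p, and for likeness the 6 highest correlations. Symbols were matched directly or through RefSeq (GRCm38.p6); promoter windows are RefSeq's. Alternatives left out each array, added the replicate number as a block, rescaled arrays, changed the probe set rule, kept only bright genes (mean at or above 6.82), or changed the variance model. No label says whether replicate numbers pair the samples. In their deviations from group means, same-numbered arrays correlated at 0.0201 to 0.308 (TMT with saline) and −0.125 to −0.0355 (TET with saline). Of 6 samples, 4 correlated best with their own number in TMT with saline, and 0 in TET with saline. A pairing of TMT with saline was thus left undecided, and the block was kept as an alternative.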

Additional observations from a re-analysis of the deposited data

Results flagged for a closer look

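Siglece, Siglec1 and St3gal5 were called higher with TMT and lower with TET than with saline. Given these opposite calls in the same fit, the test of TET against TMT was bound to pass for each. Its p-values therefore add no support, and the doses were unequal. The TET minus TMT difference was −3.39 for Siglece (3.08 for TMT and −0.31 for TET against saline, limma adjusted p = 1.9e-08). It was −1.54 for Siglec1 (1.18 and −0.36, adjusted p = 6.3e-06) and −1.07 for St3gal5 (0.57 and −0.50, adjusted p = 0.00082). The TET calls against saline of these 3 genes, and the TMT call of St3gal5, were lost under several alternatives, as given with each gene.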

How the results depend on the processing

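Of the 9 tested genes, 7 passed with TMT, 7 with TET and 8 between TET and TMT. Leaving out 1 array at a time gave 3 to 7, 2 to 7 and 7 to 8, and the fits without an array have fewer samples. The St6gal1 difference ran from −5.11 to −4.93 with TMT and from −2.91 to −2.56 with TET over those fits. It was −3.25 with TMT and −1.90 with TET as the mean over its probe sets, which includes the dim one. With the replicate block, 7, 7 and 8 genes passed. St3gal6 with TMT turned to −0.09 as the mean over probe sets. Across all other alternatives the direction of each of the 9 genes' differences from saline was kept; 260 of these results kept their side of the threshold, 55 lost the call and 6 gained it. Over all genes, array weights called 8756 with TMT against 5049 in the fit reported, and among bright genes alone 6066 were called with TET against 9247, with fewer genes tested. St3gal4 has no value among bright genes. The cause of the other shifts was not tested. No value marks the background of the arrays, so low signals are uncertain.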

Other observations

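Of 24 genes that build the glycans to be capped, 6 rose, 9 fell and 9 did not pass with TMT (median difference −0.29), where 14.3% of all genes rose and 13.4% fell. With TET 6 rose, 10 fell and 8 did not pass (median −0.21), where 27.4% of all genes rose and 23.4% fell. Gcnt1, which starts branched O-glycans, fell 5.98-fold with TMT (−2.58, SE 0.14, limma adjusted p = 5.7e-07) and 6.30-fold with TET (−2.65, SE 0.14, adjusted p = 2e-07). Its means were 7.13 in TMT, 7.05 in TET and 9.71 in saline. Mgat1, which opens complex N-glycan synthesis, fell 3.72-fold with TET (−1.90, SE 0.10) and 1.48-fold with TMT (−0.57, SE 0.10). Fut4, a fucosyltransferase of selectin ligands, fell 3.72-fold with TET (−1.89, SE 0.13) and also fell with TMT (−0.54). B4galt6, a lactosylceramide synthase, fell 2.31-fold with TET (−1.21, SE 0.10) and had a TMT difference of 0.05 that did not pass.

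Of 12 sialylated surface proteins, 2 rose and 4 fell with TMT, where 14.3% of all genes rose and 13.4% fell. With TET 3 rose and 6 fell, where 27.4% of all genes rose and 23.4% fell. Spn, encoding CD43, fell 2.87-fold with TET (−1.52, SE 0.13, adjusted p = 9.2e-06) and also fell with TMT (−0.45). Cd44, the hyaluronan receptor, fell 2.54-fold with TMT (−1.34, SE 0.11, adjusted p = 1.2e-05) and also with TET (−0.63). Selplg, the P-selectin ligand, rose 1.64-fold with TMT (0.72, SE 0.10) and also rose with TET (0.3). Icam1 fell 1.61-fold with TMT (−0.69, SE 0.10) and also with TET (−0.42). Of the 3 proteases known to cleave Golgi glycosyltransferases or related to such a protease, 1 rose and 1 fell with each organotin. The shares of all genes are those given for the surface proteins. Bace1, whose product cleaves ST6Gal I, rose 1.40-fold with TMT (0.49, SE 0.15, adjusted p = 0.036) and fell 2.71-fold with TET (−1.44, SE 0.15, adjusted p = 3e-05). Bace2, its relative, fell with TMT (−0.40, adjusted p = 0.022). Sppl3, which trims Golgi glycosyltransferases, rose 2.03-fold with TET (1.02, SE 0.11, adjusted p = 4e-05).

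On chromosome 7, 4 protein-coding genes lie between Cd33 and Siglece in RefSeq. Of 14 neighbours (those 4 and the 5 on either side), 12 were measured. Of these 12, 1 rose and 1 fell with TMT, where 14.3% of all genes rose and 13.4% fell. Ctu1, the gene next to Siglece, rose with TMT (0.57, limma adjusted p = 0.0066) and fell with TET (−1.69, adjusted p = 2.7e-06). Etfb fell with TMT (−0.61, adjusted p = 0.0012) and with TET (−0.30, adjusted p = 0.033). With TET 3 rose and 4 fell, where 27.4% of all genes rose and 23.4% fell. The 4 genes between Cd33 and Siglece had TMT differences of 0.27 (Zfp658), 0.49 (Zfp719), 0.20 (Zfp819) and 0.12 (Ceacam18), and 0 of them passed.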
